A study of Rattus norvegicus with 30 samples.

Results

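The 9 genes described here belong to transforming growth factor beta (TGF-beta) and profibrotic signalling, and their transcripts were measured in whole hearts of F344 (Fischer) rats. The rats were untreated, of both sexes, and 8 weeks (young), 21 weeks (adult) or 78 weeks (old) of age. The genes were the ligands Tgfb1, Tgfb2 and Tgfb3, the latent binding proteins Ltbp1 and Ltbp2, the receptors Tgfbr1 and Tgfbr2, connective tissue growth factor (Ctgf, now also named Ccn2) and growth differentiation factor 15 (Gdf15). They were chosen by symbol: 13 rows carried 1 of these names in each of the normalized tables of the 3 ages, which held 23268, 23227 and 22458 gene names. The rows traced back to 15 probes. There were 5 rats in each of 6 groups of sex and age, and each heart was measured on 1 one-colour Agilent rat array, which gave 30 arrays. The rats carried no transgene and received no agent, so that sex and age were the only labelled differences. According to the study's methods the ages were handled in different batches, and therefore age and batch cannot be told apart. A whole heart holds many cell types, so fewer cells of a type and less RNA per cell cannot be told apart either.

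TGF-beta ligands are made as inactive precursors, and latent TGF-beta binding proteins such as Ltbp1 tether them to the extracellular matrix until integrins or proteases release them. The active ligand brings the type II receptor Tgfbr2 together with the type I receptor Tgfbr1, which phosphorylates Smad proteins that enter the nucleus and regulate target genes. In the heart the pathway is best known for driving fibroblasts to deposit collagen. Ctgf is a matricellular protein and a classical TGF-beta target. Gdf15 is a distant member of the TGF-beta superfamily that acts through the receptor Gfral and is known as a stress-responsive cytokine and a circulating marker of cardiac disease and ageing.

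Each probe is an oligonucleotide of 60 bases. The sequences below belong to the probe with the largest difference between ages (Gdf15), to the founding ligand (Tgfb1) and to the probe used for each receptor, and they show what was hybridized (5′ to 3′, as designed, with coordinates of build rn3).
Gdf15, chr16:19313388-19313447, plus strand: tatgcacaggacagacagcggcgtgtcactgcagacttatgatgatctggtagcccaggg
Tgfb1, chr1:80988234-80988293, plus strand: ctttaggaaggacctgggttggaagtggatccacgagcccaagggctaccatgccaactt
Tgfbr1, chr5:64013804-64013863, plus strand: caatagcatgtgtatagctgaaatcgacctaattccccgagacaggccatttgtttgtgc
Tgfbr2, chr8:120628433-120628492, minus strand: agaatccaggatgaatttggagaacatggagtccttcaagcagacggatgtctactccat

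The scanner files themselves gave the gene name to 11 of the 15 probes, and the authors' tables added the other 4 under the names Ctgf, Tgfb2 and Tgfbr1. All 4 lay on the strand opposite to the gene. For Ctgf, the named probe covered chr1:21328927-21328986 on the minus strand and the added probe chr1:21328665-21328724 on the plus strand. For Tgfb2, the named probe covered chr13:102908405-102908464 on the minus strand and the added probe chr13:102907989-102908048 on the plus strand. For Tgfbr1, the named probes lay on the plus strand of chromosome 5 and both added probes on the minus strand. The added Ctgf probe was well above background on 4 of 30 arrays and the named one on all 30. The added Tgfb2 probe was well above background on 11 arrays against 28 for the named probe, and the added Tgfbr1 probes on 0 arrays each. Arrays of this type read labelled RNA by strand, so a value from an added probe was not taken as the level of the gene. The brightest probe stood for each gene, and for every gene it was one that the scanner file named. Whether a probe lies in coding sequence or in an untranslated part was not assigned here, since no annotation of build rn3 was used.

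Levels are given as log2 of the processed spot signal over the 75th percentile of its array, so that 0 is the signal of the 75th percentile spot. Between 39.6% and 56.0% of non-control spots were well above background, and the lowest share and the lowest 75th percentile belonged to the adult male of replicate 2. At 78 weeks the arrays labelled female replicate 2 and male replicate 3 did not match their sex label. The Y-linked gene Eif2s3y stood at 1.36 in that female against -5.75 to -5.54 in the other 4 old females, and at -5.60 in that male against 0.88 to 1.43 in the other 4 old males. Sex differences of single genes at 78 weeks are therefore given with and without this mismatched pair. Age differences keep the pair unless stated. Without it 3, 9 and 8 probes of the 9 genes passed the adjusted threshold used below (78 and 8, 78 and 21, 21 and 8 weeks). These are the same numbers as with it. Females lay on array positions 2 and 4 of each slide and males on 1 and 3, and therefore sex and position cannot be told apart. In the 21-week comparison of females with males the median of all probes shifted by -0.23, and between ages it shifted by 0.13 (78 minus 8 weeks), -0.17 (78 minus 21 weeks) and 0.28 (21 minus 8 weeks).

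**Figure D1:**
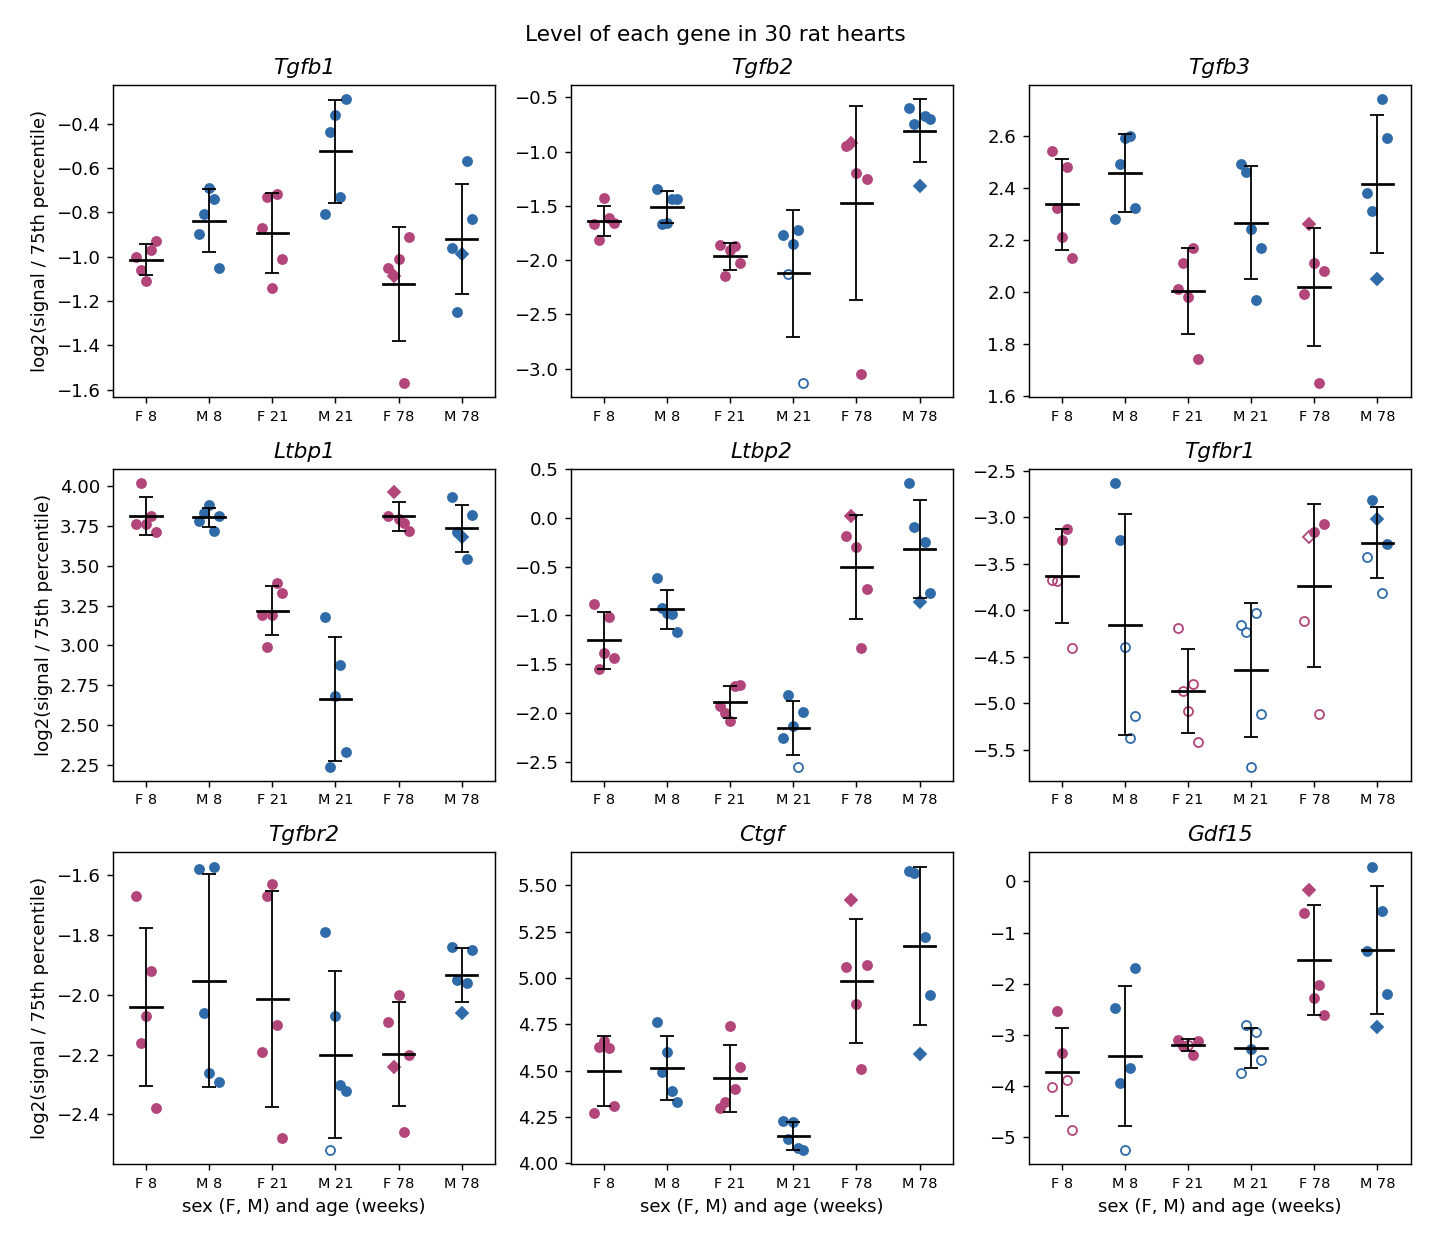
Level of each of the 9 genes (log2, relative to the 75th percentile spot) in 30 hearts by sex (F, M) and age in weeks. Points are rats, open points were not well above background, diamonds are the mismatched pair of old arrays, lines and bars are the mean and SD of 5 rats. Gdf15, Ctgf and Ltbp2 sit higher at 78 than at 8 weeks, and Ltbp1 and Ltbp2 sit low at 21 weeks.

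The comparison of females with males at each age addressed sex differences in the heart. No gene passed the adjusted threshold (limma, Benjamini-Hochberg over 40926 probes, adjusted p under 0.05) at any age: 0 of 9 genes and 0 of 15 probes at 8 weeks, where 0.0660% of all probes passed, 0 at 21 weeks, where 0.0318% passed, and 0 at 78 weeks, where 0% passed. Without the mismatched pair 0 members passed at 78 weeks, beside 0.0244% of all probes. At an unadjusted p under 0.05 the counts of genes were 0, 3 and 2, beside 4.28%, 13.5% and 4.60% of all probes. Analysis of the difference of the sex effect between ages called no member in any of the 3 contrasts, in which 0%, 0.00244% and 0.00244% of all probes passed. The median difference of the 9 genes, female minus male, was -0.12 at 8 weeks, 0.16 at 21 weeks and -0.20 at 78 weeks, beside all-probe medians of 0.03, -0.23 and 0.01.

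The comparison of ages addressed the change of the heart with age. Between 78 and 8 weeks Gdf15, Ctgf and Ltbp2 were called higher in old hearts and no member was called lower, that is 3 of 9 genes, beside 10.8% of all probes called, 5.94% higher and 4.90% lower. No member had young and old hearts that did not overlap, beside 1.94% of all probes. Between 78 and 21 weeks 6 genes were called higher and 1 lower, beside 32.2% of all probes (14.0% higher and 18.2% lower). Between 21 and 8 weeks 1 gene was called higher and 5 lower, beside 56.8% of all probes (41.5% higher and 15.3% lower). Tgfbr1 is among the 6 and among the 5, but its probe was well above background on 0 of 10 adult arrays, and the bounds on its level gave no direction in either comparison. The share called among all probes was largest in the comparisons with the 21-week arrays, so counts of members there are read against a high background. The median difference of the 9 genes was 0.37 for 78 minus 8 weeks, 0.83 for 78 minus 21 weeks and -0.26 for 21 minus 8 weeks.

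**Figure D2:**
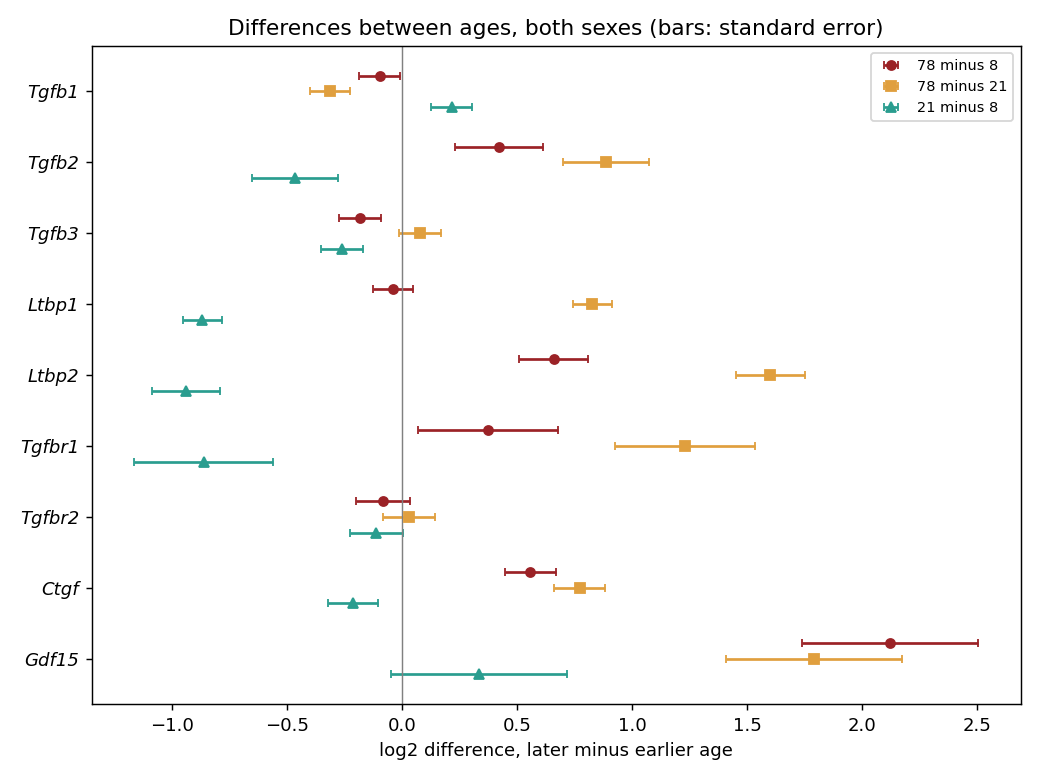
Difference between ages over both sexes for the 9 genes (x axis, log2, later minus earlier age; bars are standard errors of the limma fit over 30 arrays). Gdf15 has the largest 78 minus 8 week difference, 2.12, and Ltbp1 and Ltbp2 lie left of 0 for 21 minus 8 weeks and right of 0 for 78 minus 21 weeks. Tgfbr1 was at background on all adult arrays, so its 2 comparisons with 21 weeks carry no direction.

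Gdf15 showed the largest difference between young and old hearts. In young females it read -4.01, -2.53, -3.36, -3.87 and -4.85, and in young males -2.48, -3.94, -5.25, -3.65 and -1.70. In old females it read -0.61, -0.17, -2.28, -2.02 and -2.61, and in old males -1.36, 0.29, -2.85, -0.58 and -2.19. Most old hearts were above most young hearts, but the ages overlapped, and both young and old hearts covered a wide range. The 21-week hearts were the most uniform, between -3.74 and -2.81. The probe was well above background on 10 of 10 old arrays, 6 of 10 young arrays and 5 of 10 adult arrays. The 78 minus 8 week difference was 2.12 ± 0.38 (SE, adjusted p = 0.000369 by limma), a 4.35-fold difference, or 1.99 relative to the median probe. In females alone it was 2.18 (adjusted p = 0.0321) and in males alone 2.06 (adjusted p = 0.0339). Both of these fits keep the mismatched pair. Without it the old means were -1.88 in females and -0.96 in males, beside -3.72 and -3.40 in young hearts. Over both sexes the difference without the mismatched pair was 2.13 (adjusted p = 0.00041). Young readings that were not well above background enter these differences and the fold. Under another background correction, given below, the difference over both sexes was smaller and was not called. The difference from adult hearts was 1.79 ± 0.38 (adjusted p = 0.000513), whereas adult and young hearts differed by 0.33 ± 0.38 (adjusted p = 0.459). Sexes did not separate at any age: female minus male was -0.32, 0.05 and -0.20 at 8, 21 and 78 weeks, with exact permutation p values of 0.683, 0.786 and 0.762 (two-sided, 5 against 5). Among old rats it was -0.92 without the mismatched pair (exact p = 0.229, 4 against 4).

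Ctgf was among the bright probes and was well above background on every array. Young females read 4.27, 4.63, 4.66, 4.62 and 4.31 and young males 4.76, 4.49, 4.60, 4.39 and 4.33. Old females read 5.06, 5.42, 4.86, 4.51 and 5.07 and old males 5.58, 5.57, 4.59, 5.22 and 4.91. Of the 10 old hearts, the 2 lowest fell within the range of the young hearts, which ended at 4.76. The 78 minus 8 week difference was 0.56 ± 0.11 (adjusted p = 0.000987), a 1.47-fold difference, or 0.43 relative to the median probe. It was 0.64 in males alone (adjusted p = 0.0186) and 0.47 in females alone (adjusted p = 0.144). Both of these fits keep the mismatched pair. Without it the old means were 5.32 in males and 4.87 in females, beside 4.52 and 4.50 in young hearts. Old exceeded adult hearts by 0.77 ± 0.11 (adjusted p = 3.59e-06), and adult minus young was -0.21 ± 0.11 (adjusted p = 0.0963). At 21 weeks all 5 females (4.30 to 4.74) were above all 5 males (4.07 to 4.23), a difference of 0.31 with the smallest exact p that 5 against 5 can give, 0.00794. At that age 3.32% of all probes had sexes that did not overlap, beside 1.07% at 8 weeks and 0.712% at 78 weeks, and the adjusted p of Ctgf was 0.366. The 8-week difference was -0.02. The 78-week difference was -0.19, and -0.45 without the mismatched pair (exact p = 0.0857, 4 against 4). With that pair included, the change of the sex difference from 21 to 78 weeks was -0.50 ± 0.24 (adjusted p = 0.388).

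Ltbp2 encodes a microfibril-associated protein of the latent binding family that does not itself bind latent TGF-beta. Young females read -0.88, -1.55, -1.39, -1.02 and -1.44, and young males -0.62, -0.92, -0.98, -0.99 and -1.17. Adult hearts were lower, from -2.08 to -1.71 in females and from -2.55 to -1.82 in males. Old females read -0.19, 0.02, -0.30, -1.33 and -0.73, and old males 0.36, -0.09, -0.86, -0.25 and -0.77. Adult hearts did not overlap with either other age, whereas young and old hearts overlapped. Old minus young was 0.66 ± 0.15 (adjusted p = 0.0039), a 1.58-fold difference, or 0.53 relative to the median probe. It was 0.73 in females alone and 0.59 in males alone, with adjusted p values of 0.084 and 0.144. Both of these fits keep the mismatched pair. Without it the old means were -0.64 in females and -0.19 in males, beside -1.26 and -0.94 in young hearts. Old minus adult was 1.60 ± 0.15 (adjusted p = 5.57e-09) and adult minus young -0.94 ± 0.15 (adjusted p = 1.77e-05). Groups that do not overlap between ages made up 3.61% of all probes for 78 against 21 weeks and 6.47% for 21 against 8 weeks. Female minus male was -0.32, 0.26 and -0.19 at the 3 ages, with exact p values of 0.0873, 0.0952 and 0.619. At 78 weeks it was -0.45 without the mismatched pair (exact p = 0.229, 4 against 4).

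Ltbp1, which tethers the latent complex, had nearly the same level in young and old hearts. It lay between 3.71 and 4.02 at 8 weeks and between 3.54 and 3.96 at 78 weeks, and the difference was -0.04 ± 0.09 (adjusted p = 0.779). At 21 weeks females read 3.19, 2.99, 3.19, 3.39 and 3.33 and males 3.18, 2.24, 2.68, 2.88 and 2.33. All adult hearts were below all young and all old hearts, and the differences were -0.87 ± 0.09 from young hearts (adjusted p = 2.19e-08) and 0.83 ± 0.09 between old and adult hearts (adjusted p = 3.4e-08). In adults 4 of 5 females were above all males, a difference of 0.56 (exact p = 0.0159, limma adjusted p = 0.363). The lowest male was replicate 2, the array with the lowest 75th percentile. Females exceeded males by 0.38, 0.52 and 1.00 within the slides that held adult arrays. The sex difference changed by 0.55 ± 0.19 from 8 to 21 weeks (adjusted p = 0.295), and it was 0.01 at 8 and 0.07 at 78 weeks. Without the mismatched pair the 78-week difference was 0.02 (exact p = 0.8, 4 against 4).

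None of Tgfb1, Tgfb2 and Tgfb3 was called between young and old hearts. Tgfb1, the ligand most studied in fibrosis, read between -1.11 and -0.69 at 8 weeks, between -1.14 and -0.29 at 21 weeks and between -1.57 and -0.57 at 78 weeks. Old minus young was -0.10 ± 0.09 (adjusted p = 0.46). Adult hearts were higher than young hearts by 0.22 ± 0.09 (adjusted p = 0.0392), which was below the shift of 0.28 of the median probe, and the call was lost in 12 of 20 fits that left out 1 array. Old minus adult was -0.31 ± 0.09 (adjusted p = 0.00637). Female minus male was negative at every age, -0.18, -0.37 and -0.20, with exact p values of 0.0476, 0.0397 and 0.262 and limma adjusted p values of 0.927, 0.366 and 0.931. At 78 weeks it was -0.23 without the mismatched pair (exact p = 0.343, 4 against 4). At 21 weeks the shift of the median probe, -0.23, was in the same direction, and relative to it the difference was -0.14.

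Tgfb2, a ligand with a well-known part in heart valve development, lay between -1.81 and -1.34 in young hearts. In old females it read -0.95, -0.92, -1.20, -3.05 and -1.25 and in old males -0.60, -0.75, -1.32, -0.67 and -0.70. A single array decided the call. Old minus young was 0.42 ± 0.19 (adjusted p = 0.15), and without old female replicate 4, the reading of -3.05, it was 0.62 (adjusted p = 0.00165). On that array the summed level (log2 of the summed linear levels) of 4 mesothelial and epicardial markers was 1.37, against 2.99 to 3.40 in the other old females, and the summed level of 2 blood markers was 3.70 against 5.29 to 5.78. Their part in the result was not tested. Old exceeded adult hearts by 0.89 ± 0.19 (adjusted p = 0.000486), and adult minus young was -0.47 ± 0.19 (adjusted p = 0.0372), a call lost in 9 of 20 fits that left out 1 array. Female minus male was -0.66 at 78 weeks (exact p = 0.0714), and -0.27 without old female replicate 4. Without the mismatched pair it was -0.93 (adjusted p = 0.751), and all 4 females were below all 4 males.

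Tgfb3 lay between 2.13 and 2.60 at 8 weeks, 1.74 and 2.49 at 21 weeks and 1.65 and 2.74 at 78 weeks. Adult minus young was -0.26 ± 0.09 (adjusted p = 0.0166), or -0.545 relative to the median probe. Old minus young was -0.18 ± 0.09 (adjusted p = 0.173) and old minus adult 0.08 ± 0.09 (adjusted p = 0.502). Female minus male was -0.12 at 8 weeks and -0.26 at 21 weeks, where it was -0.03 relative to the median probe. Old females read 1.99, 2.26, 2.11, 1.65 and 2.08 and old males 2.38, 2.31, 2.05, 2.74 and 2.59. The difference was -0.40 ± 0.15 (exact p = 0.0397, adjusted p = 0.931), and without the mismatched pair it was -0.55 (adjusted p = 0.513), with every female below every male. The lowest female reading was again replicate 4.

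The receptors showed no difference between young and old hearts that passed the test. Tgfbr2 lay between -2.38 and -1.57 at 8 weeks, -2.52 and -1.63 at 21 weeks and -2.46 and -1.84 at 78 weeks, and its 3 age differences were -0.08 (78 minus 8), 0.03 (78 minus 21) and -0.11 (21 minus 8), with adjusted p values of 0.653, 0.85 and 0.409. Old females read -2.09, -2.24, -2.0, -2.46 and -2.20 and old males -1.84, -1.95, -2.06, -1.96 and -1.85. The difference of -0.27 ± 0.10 had an exact p of 0.0159 and an adjusted p of 0.931, and it was -0.29 without the mismatched pair (adjusted p = 0.731). Without that pair Tgfb2, Tgfb3 and Tgfbr2 had sexes that did not overlap at 78 weeks, with the smallest exact p that 4 against 4 can give, 0.0286, and 5.05% of all probes did the same.

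Tgfbr1 was near the detection limit. Its brightest probe was well above background on 4 young, 0 adult and 5 old arrays, and the other 2 probes named by the scanner files on 8 and 0 of 30 arrays. Old minus young was 0.37 ± 0.31 (adjusted p = 0.41). Both comparisons with adult hearts passed the adjusted threshold (adjusted p = 0.00201 against old and 0.0178 against young hearts). On adult arrays, however, only an upper bound of the level was measured, and it was above the mean of the old and of the young hearts, so no direction and no fold are given. The sign of the sex difference varied between the probes of this gene. At 21 weeks the standing probe gave -0.23 and the next brightest 0.87 (adjusted p = 0.685 and 0.363). Both probes were well above background on 0 adult arrays, so these signs carry no direction.

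**Figure D3:**
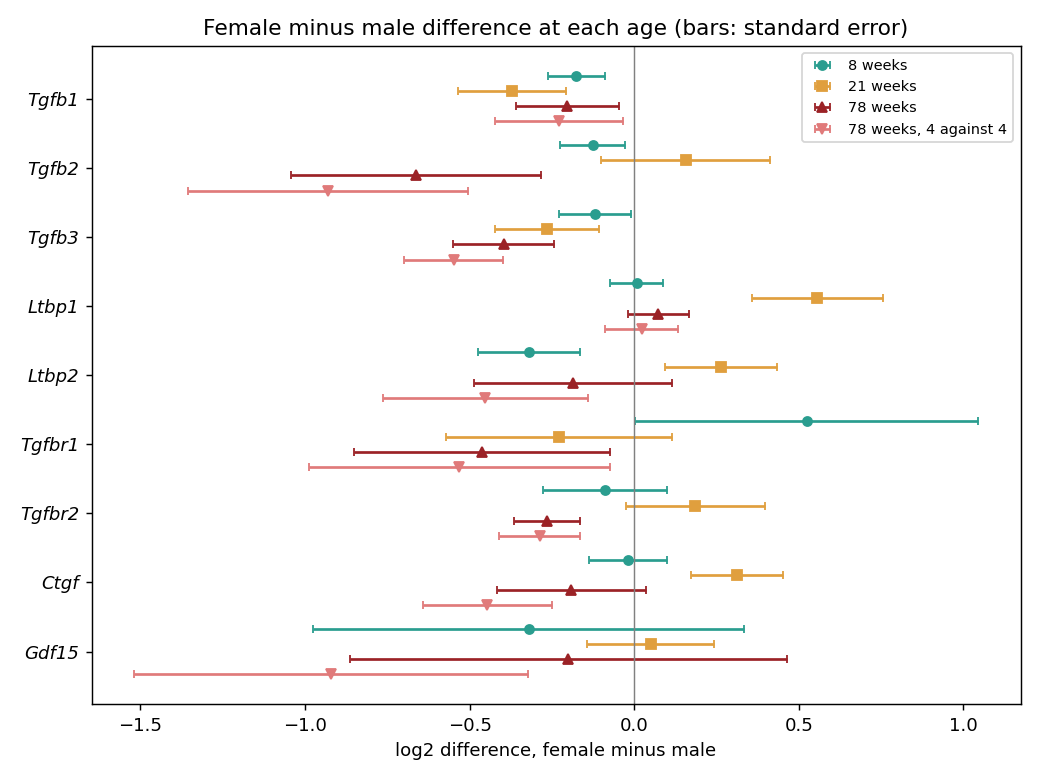
Female minus male difference (x axis, log2; bars are standard errors of the limma fit) for the 9 genes at 8, 21 and 78 weeks and at 78 weeks without the mismatched pair (4 against 4). No gene passed the adjusted threshold at any age, and Tgfb1 and Tgfb3 lie left of 0 at all 3 ages. At 21 weeks the median of all probes also lay left of 0, at -0.23, and relative to it Tgfb3 was at -0.03. Tgfbr1 was at background on all 21-week arrays.

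One slide, numbered 6 here, held arrays of both young and old rats, 1 of each sex and age, and it allowed a comparison of ages within a slide. On it old minus young was 0.75 in the female and 1.25 in the male pair for Ctgf, 1.25 and 1.53 for Ltbp2, 4.24 and 0.34 for Gdf15, and 0.70 and 0.84 for Tgfb2. The young female reading of Gdf15 on this slide, -4.85, was not well above background, so the size of 4.24 is uncertain. Both pairs were also above 0 for Ltbp1 (0.10 and 0.11), Tgfbr1 (0.28 and 1.71, near the detection limit) and Tgfbr2 (0.28 and 0.45). Over all arrays the differences of Ltbp1 and Tgfbr2 were -0.04 and -0.08. The share of all probes above 0 in both pairs was not computed, so these signs have no background to be read against. The same slide gave -0.12 and 0.10 for Tgfb1 and -0.14 and 0.06 for Tgfb3, with opposite signs. In a fit with the slide as a fixed block, which leaves only these 4 arrays to inform the age difference, the values were 1.00 for Ctgf, 1.39 for Ltbp2 and 2.29 for Gdf15, and none passed the adjusted threshold (adjusted p = 0.218, 0.102 and 0.588). The calls also depended on the background correction: with normexp (offset 50) they were 0.09 for Ctgf (adjusted p = 0.826), 0.44 for Ltbp2 (adjusted p = 0.0772) and 0.77 for Gdf15 (adjusted p = 0.0772), so that no member was called.

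**Figure D4:**
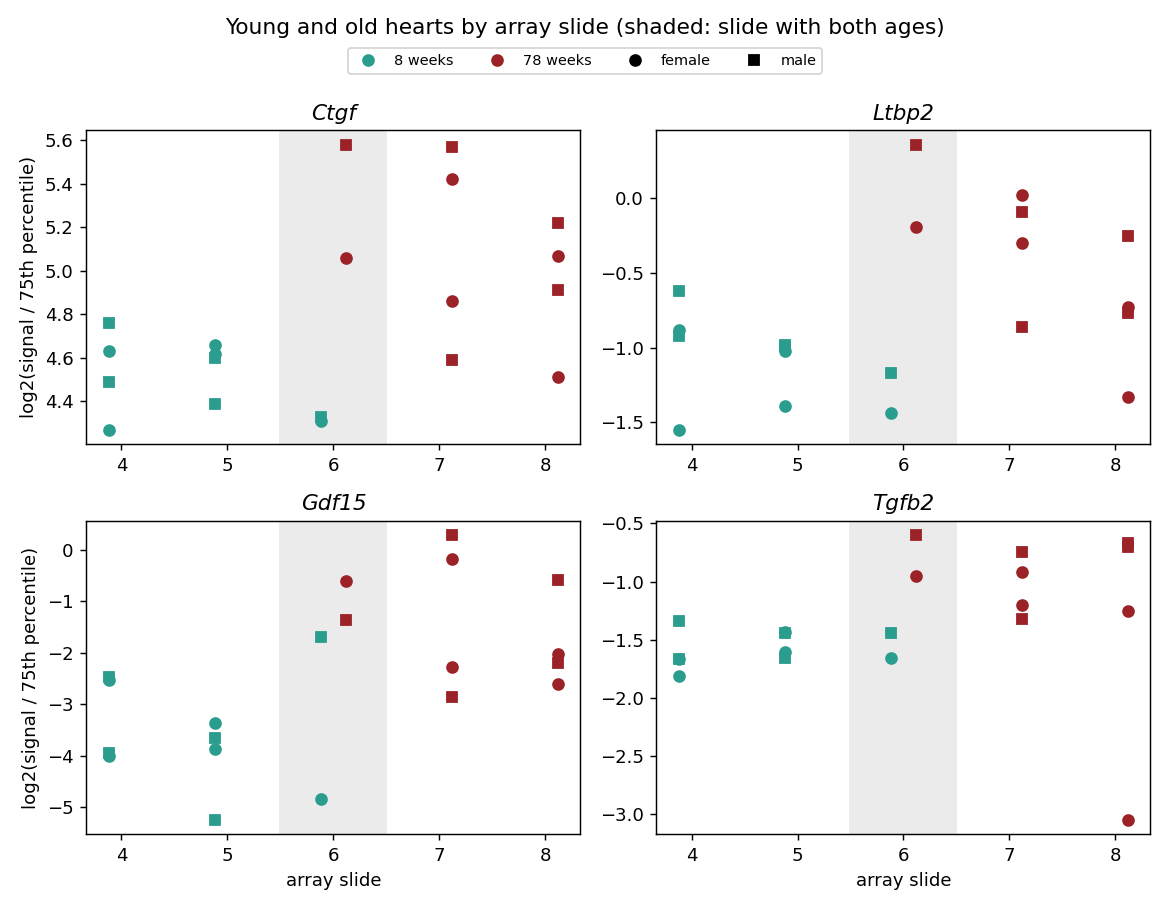
Levels of Ctgf, Ltbp2, Gdf15 and Tgfb2 (y axis, log2, relative to the 75th percentile spot) on the 5 slides with young or old hearts. Circles are females, squares males, green points 8 weeks and red points 78 weeks, and on the shaded slide, which held both ages, each old heart lies above the young heart of the same sex.

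Other genes of the pathway were taken from 5 lists of 79 genes, of which 72 had a probe. Between 78 and 8 weeks 9 were called higher and 11 lower (beside 10.8% of all probes), and the median difference was 0.04. Target genes moved in both directions, with 4 of 21 higher and 4 lower. Wisp2, a CCN family relative of Ctgf, was higher by 1.55 ± 0.17 (adjusted p = 2.94e-07). Nov, another CCN family gene, and Timp1, an inhibitor of matrix metalloproteinases, were higher by 0.51 and 0.47. The 4 lower targets were matrix genes. The differences were -1.41 ± 0.10 (adjusted p = 8.6e-11) for the fibrillar collagen Col3a1, -0.67 ± 0.13 (adjusted p = 0.000756) for Col1a1, -1.53 ± 0.13 (adjusted p = 2.17e-09) for the collagen cross-linking enzyme Lox, and -0.37 ± 0.07 (adjusted p = 0.000844) for Tgfbi. Col3a1 lay between 7.44 and 8.01 in young hearts and between 5.85 and 6.65 in old hearts, without overlap.

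Of 16 measured genes for ligands, latency and activation, 3 were higher and 3 lower in old hearts. Gdf11, a ligand related to myostatin, was higher by 0.70 ± 0.09 (adjusted p = 3.24e-06) and the integrin subunit Itgb6 by 0.59, and Thbs1 was called although its probe was well above background on 0 of 30 arrays. The fibrillins Fbn2 and Fbn1, microfibril proteins that anchor latent complexes, were lower, with differences of -1.86 ± 0.19 (adjusted p = 5.67e-08) and -0.55 ± 0.16 (adjusted p = 0.0225), as was Ltbp4 with -0.30. Of 12 antagonists and binding proteins 2 were higher, the proteoglycan Bgn by 0.51 ± 0.07 (adjusted p = 1.43e-05) and Fstl3 by 0.39, and 3 were lower, Grem1, Fstl1 and Bambi. Of 10 receptors and coreceptors only Acvr1 was called, with a difference of -0.44, and of 13 Smads and nuclear partners none was called. At an unadjusted p under 0.05 the Smad list held Smad7, an inhibitory Smad, with a difference of 0.19 (adjusted p = 0.0947), and Nedd4l with -0.26 (adjusted p = 0.0974). Of all 40926 probes 12217 passed that unadjusted threshold, so these genes do not stand out from the background. On the shared slide Wisp2 differed by 1.85 in the female and 2.86 in the male pair, Col3a1 by -1.24 and -1.63 and Lox by -1.12 and -1.42. Of the genes called lower over all arrays, 3 did not have both pairs below 0: Fstl1 differed by -0.03 and 0.55, Grem1 by -0.47 and 0.10 and Fbn1 by -0.51 and 0.04. Between females and males none of the 72 genes was called at any age.

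**Figure D5:**
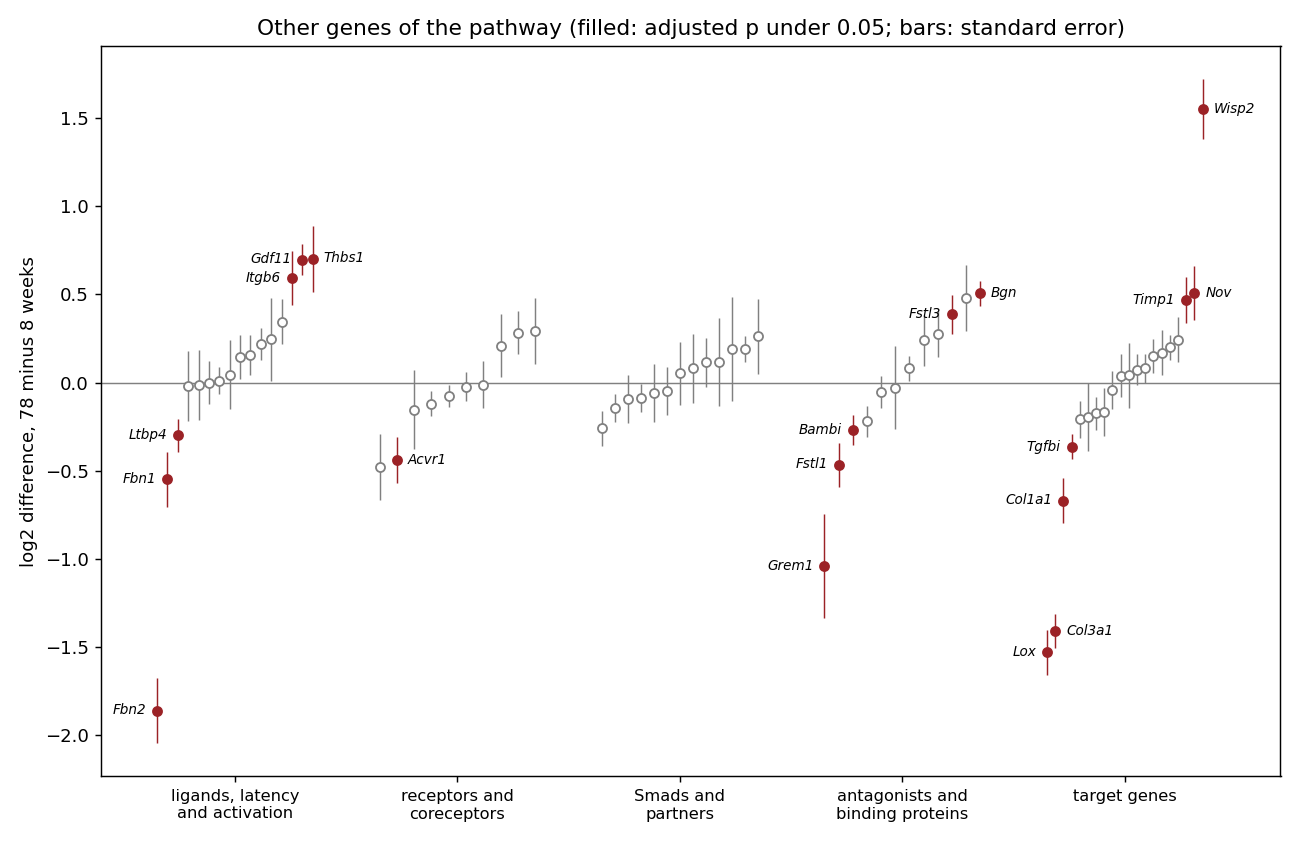
Difference between 78 and 8 weeks (y axis, log2; bars are standard errors of the limma fit) of the other pathway genes reported here in 5 lists, each ordered by its difference. Filled and named points passed the adjusted threshold, with Wisp2 the highest and Fbn2, Lox and Col3a1 the lowest of them.

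Against the 21-week arrays 23 of the 72 genes were higher and 9 lower in old hearts (32.2% of all probes called), and between 21 and 8 weeks 14 were higher and 27 lower (56.8% of all probes called). Fn1 and Postn, matrix genes of activated fibroblasts, were lower at 21 than at 8 weeks (differences of -1.17 and -0.84) and higher at 78 than at 21 weeks (1.01 for each), as Ltbp1 was. Col3a1 and Lox were lower at 21 than at 8 weeks (-1.56 and -1.72), and old minus adult was 0.15 and 0.19 (adjusted p = 0.22 and 0.246).

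Marker genes were checked for the cell types a whole heart can hold. All 8 cardiomyocyte markers were detected, with a summed level of 10.96 to 11.46 at 8 weeks and 11.32 to 11.79 at 78 weeks. The summed level of 6 fibroblast markers, which include collagens, was 8.08 to 8.44 in young and 7.55 to 8.22 in old hearts. For 8 macrophage and leukocyte markers it was 5.79 to 6.10 and 5.79 to 6.56, for 5 smooth muscle and pericyte markers 4.94 to 5.26 and 4.85 to 5.63, and for 5 endothelial markers 3.64 to 3.83 and 3.75 to 4.13. Skeletal muscle markers (5 genes, several shared with heart) gave 8.37 to 8.64 and 8.05 to 8.50, and adipocyte markers 5.65 to 6.67 and 5.82 to 7.61, with Lep well above background on 0 arrays. Among macrophage and leukocyte markers 4 of 8 were called higher and 0 lower between 78 and 8 weeks, beside 10.8% of all probes. For endothelial markers 0 of 5 were called higher and 2 lower (median difference -0.21). Smooth muscle and pericyte markers gave 0 of 5 higher and 2 lower (median 0.33). Counts higher and lower were 1 and 1 of 8 for cardiomyocyte, 0 and 1 of 6 for fibroblast, 0 and 1 of 5 for skeletal muscle and 1 and 0 of 4 for adipocyte markers. Sums for cardiomyocyte and macrophage markers in young males rest on 4 arrays, since a spot was left out on the fifth. At 21 weeks the endothelial sum was lower, 3.19 to 3.59 in females and 2.56 to 3.51 in males. Against 8 weeks 4 of 5 endothelial markers were called lower and 0 higher, beside 15.3% and 41.5% of all probes. Adult males of replicates 2 and 5 had the lowest endothelial sums (2.56 and 2.73) and were among the lowest in Ltbp1 (2.24 and 2.33). The same arrays had the lowest shares of non-control spots well above background (39.6% and 44.1%) and the highest cardiomyocyte sums (12.69 and 12.11). The smooth muscle sum was 4.63 to 5.05 in adult females and 4.64 to 4.91 in adult males. The cardiomyocyte sum was 11.37 to 11.86 and 11.58 to 12.69. Of 8 markers 6 were called higher and 1 lower than at 8 weeks, beside the same 41.5% and 15.3% of all probes. The part of these cell types in the differences of the 9 genes was not tested.

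RefSeq promoter windows (build GRCr8) were found for all 9 genes, and the 250 bases before the start are printed for the 3 genes called between 78 and 8 weeks, 5′ to 3′ on the strand of the gene, with matches in capitals. Both strands were searched for letters of known motifs. The TEAD motif was searched as GGAATG and was present in 12.1% of 33469 promoter windows of the same kind. The Smad box was searched as CAGAC and was present in 42.9% of the windows. The TATA box was searched as TATAAA and was present in 12.9% of the windows.
Ctgf (Ccn2), chr1:22624615-22624864, minus strand: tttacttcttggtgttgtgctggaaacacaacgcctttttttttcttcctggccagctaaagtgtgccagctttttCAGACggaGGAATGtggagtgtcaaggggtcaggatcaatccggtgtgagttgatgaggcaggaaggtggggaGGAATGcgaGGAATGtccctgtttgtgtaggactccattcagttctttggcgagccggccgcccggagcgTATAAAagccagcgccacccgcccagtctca
Gdf15, chr16:18839015-18839264, plus strand: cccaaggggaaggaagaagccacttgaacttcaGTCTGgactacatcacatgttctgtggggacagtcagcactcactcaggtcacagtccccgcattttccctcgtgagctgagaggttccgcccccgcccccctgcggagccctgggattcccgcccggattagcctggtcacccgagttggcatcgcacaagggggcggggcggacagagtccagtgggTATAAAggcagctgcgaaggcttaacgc
Ltbp2, chr6:110257299-110257548, minus strand: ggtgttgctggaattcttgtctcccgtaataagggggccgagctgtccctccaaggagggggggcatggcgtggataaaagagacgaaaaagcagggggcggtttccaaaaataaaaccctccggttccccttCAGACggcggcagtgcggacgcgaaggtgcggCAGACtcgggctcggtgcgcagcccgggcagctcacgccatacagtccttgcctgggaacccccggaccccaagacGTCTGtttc

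The Ctgf window held 3 TEAD matches, 1 Smad match and 1 TATA match, which began 31 bases before the start. The Gdf15 window held 1 Smad and 1 TATA match, and the window of its other RefSeq start held none of the 3 motifs. The Ltbp2 window held 3 Smad matches and neither of the others. No 2 of the motif matches overlapped. Such matches are letters in a window and say nothing about binding.

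Within groups, the genes were also compared by how individual hearts deviated from the mean of their group. Over 30 arrays the highest correlation between members was that of Ctgf with Ltbp2, r = 0.64, followed by Tgfb1 with Tgfb3 at 0.55, Ctgf with Tgfb2 at 0.54 and Ctgf with Gdf15 at 0.49. All arrays share the scaling to their 75th percentile, and these values are descriptive. Among 14423 probes well above background on every array, the named genes most like Ctgf were Pde1a (0.77), Dzip1 (0.75) and Shoc2 (0.75), those most like Gdf15 were Sdpr (0.77), Taf7_predicted (0.73) and Cpsf6_predicted (0.73), and those most like Ltbp2 were Bex1 (0.77), Colec12 (0.72) and Fgf2 (0.72). Ltbp1 was most like Man2a1 (0.88), Tgfb1 like Lmo4 (0.85), Tgfb2 like Zfhx1b (0.89), Tgfb3 like Slc15a3 (0.83), Tgfbr1 like Sap2 (0.68) and Tgfbr2 like Hspca (0.64).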

How the data were processed

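Hearts of 30 F344 rats were hybridized to Agilent 4 x 44k one-colour arrays, and spot intensities were extracted with Agilent Feature Extraction 9.5 per the file headers. The deposited scanner files hold the processed signal intensity of each spot. The authors also deposited normalized tables for each age, in which the spots of a name are averaged and scaled to the array's 75th percentile. They were used as an alternative, and 98.6% to 98.7% of their rows matched the scanner values (at 21 weeks on the 5 female arrays, since male columns could not be tied to single rats). Here outlier spots and controls were left out, log2 intensities of the spots of a probe were averaged, and the log2 75th percentile was subtracted.

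Sexes were compared within each age with limma 3.58.1 (R 4.3.3), two-sided, with Benjamini-Hochberg adjustment over 40926 probes and a threshold of 0.05 (86 probes were left out for too few values). Ages were compared over all 30 arrays, averaged over sexes, with the slide as a random block (within-slide correlation -0.0417). Exact permutation tests permuted sex labels. The scripts were tested on simulated data. Depth has no equivalent on arrays, and the number of arrays limits precision. Labels do not say whether replicates were independent of litter or cage. Same-numbered females and males shared a slide at every age. Their deviations from the group means were all correlated above 0.1 at 78 weeks (r 0.14 to 0.31), but not at 8 and 21 weeks. The main tests and the exact permutation tests used no pairs at any age, and the replicate number as a block was run as an alternative.

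All probes of the 9 genes were tested. Differences are given mainly for the brightest, which stands for the gene. Genes of the pathway lists were named if they passed the threshold, up to 10 a comparison, and any named beyond these were chosen after their values were seen. A target gene is counted in its list but is not reported here. The 3 genes most like a member had the highest r over 30 arrays. The members and lists were chosen with earlier results of these data known. A few listed genes were matched by RefSeq accession. Promoter sequences are from RefSeq.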

Additional observations from a re-analysis of the deposited data

Results flagged for a closer look

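Of 54 groups of 5 hearts, 1 for each gene, sex and age, 4 held an array that stood apart from the others in its group by Dixon's test, and chance flags about 1 in 20 groups. Old female replicate 4 stood apart in Tgfb1 (-1.57, with the nearest female at -1.09) and in Tgfb2 (-3.05, nearest -1.25). Old male replicate 3, which did not match its sex label, stood apart in Tgfb2 (-1.32, nearest -0.75), and adult male replicate 5 stood apart in Tgfb2 (-3.13, nearest -2.13), where its signal was not well above background.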

How the results depend on the processing

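Of 16 called differences between ages, set against 482 other settings in all, 420 kept their direction and their side of the threshold, 59 kept the direction only and 3 reversed; the cause was not tested. Between 78 and 8 weeks the number of the 15 probes called was 3, and it was 5 on the raw median signal, 0 with normexp, 1 in females only and 0 with the slide as a fixed block, where 4 arrays carry the age difference. Leaving out 1 array gave 3 to 5, with 5 without old female replicate 4. Between 78 and 21 weeks the number was 9, with 0 under normexp, 3 in females only and 9 to 10 leaving out 1 array. The 9 include the added Tgfb2 probe (1.46) and the next brightest Tgfbr1 probe (0.91), each well above background on 0 adult arrays. Between 21 and 8 weeks it was 8, with 0 under normexp, 5 among probes above background on at least 5 arrays, 1 in females only and 6 to 8 leaving out 1 array. The 8 include the next brightest Tgfbr1 probe (-0.60) and an added Tgfbr1 probe (0.50) that was well above background on 0 arrays. Between sexes it was 0 at each age under every alternative run. Over all probes, normexp called 367 between 78 and 8 weeks, 319 between 78 and 21 weeks and 933 between 21 and 8 weeks, against 4438, 13180 and 23244, and between 78 and 8 weeks the raw median signal called 7867, the fixed slide block 207 and females only 1010. Females only gave 3704 between 78 and 21 weeks and 2998 between 21 and 8 weeks. Males only gave 1617, 13168 and 21740 calls over all probes in these 3 comparisons (78 and 8, 78 and 21, 21 and 8 weeks) and 2, 9 and 6 among the member probes. The difference between the sexes in these counts was not tested, and the fits of 1 sex keep the mismatched pair under its labels. Of the other pathway genes 20 were called between 78 and 8 weeks, 4 with normexp and 6 with the fixed slide block (alternatives chosen after seeing the data). With the replicate number as a block, 0 members were called between sexes at each age, and over all probes the replicate block gave 5, 4 and 0 calls at 8, 21 and 78 weeks against 27, 13 and 0 without it. Between ages the replicate block replaced the slide block, and 3, 9 and 6 member probes were called (78 and 8, 78 and 21, 21 and 8 weeks), against 3, 9 and 7 with neither block. At 8 and 21 weeks same-numbered rats had r between -0.21 and 0.57, and not every female was most like the male of its number. At 78 weeks every female was most like the male of its number.

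Signs turned mostly in small differences. At 8 weeks female minus male in Ltbp1 was -0.033 on the raw median signal, -0.022 with quantile normalization, -0.03 with normexp and -0.006 in the authors' table, and in Tgfbr2 it was 0.037 with normexp. At 21 weeks the raw median signal gave -0.182 for Gdf15, -0.112 for Tgfb2 and -0.079 for Tgfbr2. Normexp gave -0.242 for Gdf15, -0.116 for Ltbp2, -0.222 for Tgfb2, 0.165 for Tgfb3 and -0.194 for Tgfbr2, and quantile normalization gave 0.011 for Tgfbr1. At 78 weeks normexp gave -0.26 for Ltbp1, 0.026 for Ltbp2 and 0.11 for Tgfbr1. Between 78 and 8 weeks Ltbp1 was 0.108 and Tgfbr2 0.367 with the fixed slide block, Tgfb1 was 0.096 and Tgfbr2 0.235 with normexp, Tgfbr1 was -0.121 in females only and Tgfbr2 0.006 in males only. Between 78 and 21 weeks Tgfbr2 was -0.107 on the raw median signal, -0.122 with quantile normalization, -0.004 with normexp and -0.196 in females only. Between 21 and 8 weeks normexp gave 0.046 for Tgfb2, 0.293 for Tgfbr1 and 0.239 for Tgfbr2, the raw median signal 0.096 for Tgfbr1 and 0.066 for Tgfbr2, and females only 0.025 for Tgfbr2. Leaving out 1 array at a time, the sex difference at 8 weeks ran from -0.064 to 0.043 in Ctgf, -0.783 to 0.105 in Gdf15, -0.046 to 0.034 in Ltbp1 and -0.18 to 0.006 in Tgfbr2. At 21 weeks it ran from -0.071 to 0.161 in Gdf15 and -0.097 to 0.254 in Tgfb2, and at 78 weeks from -0.578 to 0.207 in Gdf15 and -0.319 to 0.021 in Ltbp2. The 78 minus 21 week difference of Tgfbr2 ran from -0.025 to 0.081. Leaving out 1 array also took the 21 minus 8 week call from Tgfb1 in 12 of 20 cases and from Tgfb2 in 9. Signal near background limits Tgfbr1 and Gdf15 most.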

Other observations

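The strand of the probes that the authors' tables added under a gene name was compared across the series. Of 1412 added probes that lay within 10000 bases of a probe the scanner files named for that gene, 1248 (88.4%) were on the opposite strand and 164 (11.6%) on the same strand. Of the probes on the opposite strand 560 were well above background on 0 arrays and 240 on all 30. Of those on the same strand these numbers were 17 and 106.

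Gdf15 read from -2.85 to 0.29 in old hearts, a range about as wide as in young hearts (-5.25 to -1.70), and Ctgf from 4.51 to 5.58. Over all old hearts the ends of these ranges were held by different arrays, but within each labelled sex the same array stood at an end in both genes. The female labelled replicate 2 was the highest old female in both (-0.17 and 5.42), and the male labelled replicate 3 the lowest old male in both (-2.85 and 4.59). These are the 2 arrays that did not match their sex label.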
